A study of Mus musculus with 18 samples.

Results

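The 10 genes described here are the constant-region genes of the mouse antibody heavy chains IgA (Igha), IgM (Ighm), IgD (Ighd) and IgG (Ighg1, Ighg2b, Ighg2c and Ighg3), the constant-region gene of the kappa light chain (Igkc), the joining chain gene Jchain, and Pigr, the gene of the polymeric immunoglobulin receptor. They were taken by gene name from a table of 35405 genes measured in mouse colon, and all 10 were among the 20855 genes that passed the filter on low counts and were tested. PolyA RNA of colon tissue was sequenced in 18 libraries, 6 labelled IBC, 6 labelled TNBS and 6 labelled vector, which the table's header calls control. By the title of the series IBC is isobavachalcone, a prenylated chalcone, studied against a colitis resembling Crohn's disease that is caused by TNBS (trinitrobenzene sulfonic acid, a chemical that inflames the colon), with the receptor GPR84 as the point of interest. The labels give no strain, sex, age, dose or time, and they do not say whether the IBC libraries come from animals that had also received TNBS, or whether each library is a separate animal. The p-values therefore measure the spread between libraries, which may be technical.

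IgA is the main antibody class secreted onto mucosal surfaces. Plasma cells of the gut wall join IgA molecules with the J chain, and the polymeric immunoglobulin receptor on the tissue side of the epithelium binds the joined molecules, carries them through the cell and releases them into the lumen with a part of the receptor attached. IgM can take the same route, while IgD is mostly a surface receptor of resting B cells, made with IgM from a shared primary transcript. Secreted IgG is the main class of blood plasma, and its subclasses arise by class switching in activated B cells.

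The heavy chain genes follow each other on the minus strand of chromosome 12. In the coordinates of the deposited table, for which no genome build is given, Igha spans 113218450 to 113223856 and Ighm, at the other end of the cluster, 113382178 to 113386350. Igkc lies on the plus strand of chromosome 6 (70703419 to 70703950), Jchain on the minus strand of chromosome 5 (88667668 to 88675750) and Pigr on the plus strand of chromosome 1 (130754421 to 130779986). The 4 gamma genes resemble each other, and how reads that match several genes were counted is not given in the sources used here, so their sequences bear on how far their values can be told apart. The first 90 bases of the coding part of each gamma constant gene, which form the start of its first exon, are given from the GENCODE M21 transcripts (GRCm38, minus strand). Capitals mark bases that differ from Ighg2c at the same position.
Ighg2c, chr12:113288843-113288932: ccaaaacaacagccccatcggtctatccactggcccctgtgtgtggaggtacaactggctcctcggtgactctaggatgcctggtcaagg
Ighg2b, chr12:113307844-113307933: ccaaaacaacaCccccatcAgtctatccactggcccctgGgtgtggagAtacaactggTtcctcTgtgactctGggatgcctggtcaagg
Ighg1, chr12:113330434-113330523: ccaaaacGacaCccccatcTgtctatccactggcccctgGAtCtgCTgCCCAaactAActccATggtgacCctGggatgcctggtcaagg
Ighg3, chr12:113361143-113361232: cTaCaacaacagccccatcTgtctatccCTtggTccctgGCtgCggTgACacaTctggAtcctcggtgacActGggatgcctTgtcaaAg

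In this stretch Ighg2b differed from Ighg2c at 7 bases, and Ighg1 and Ighg3 differed from it at 18 bases each. Over the whole coding sequence Ighg2b and Ighg2c were 85.6% identical and shared a run of 78 bases, while the other pairs of gamma genes were 73.9% to 75.5% identical with shared runs of 28 to 41 bases. Igha was at most 49.7% identical to any other heavy chain gene and shared no run longer than 12 bases with one. The division of counts between Ighg2b and Ighg2c is therefore uncertain. Ighg2c is also the gene of the C57BL/6 reference at a place where strains such as BALB/c carry Ighg2a, and the strain is not labelled.

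The libraries held 55669263 to 78874868 counts. Immunoglobulin genes of all kinds (273 in the table) took 0.241% to 1.35% of them. Markers of colon were present in every library, with 2706 to 30271 CPM (counts scaled to library depth with the trimmed mean of M-values) summed over 7 genes. The libraries also fell into 2 sets by Hoxb13, whose homeobox protein patterns the tail end of the embryo. It was at most 1.44 CPM in IBC 2 and 5, TNBS 2 and 3 and vector 3 and 4, and at least 123 CPM in the other 12. Each treatment group holds 2 libraries of the low set and 4 of the high set. Hoxb6 ran the other way, at 15.7 to 98.0 CPM in the low set and 1.30 to 2.83 CPM in the high set. Member values are given within these sets where they bear on a result.

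Igkc was the most abundant member per length, with a median of 1396 FPKM (the authors' fragment count scaled to gene length and library depth) over the 18 libraries, which placed it 20th among all genes. Pigr followed with a median of 607 FPKM, then Igha with 522 FPKM and Jchain with 180.2 FPKM. Ighm was next at 18.7 FPKM, Ighd at 5.66 FPKM, Ighg1 at 4.01 FPKM, Ighg2b at 3.63 FPKM, Ighg3 at 1.73 FPKM and Ighg2c last at 0.556 FPKM. Of the 9 pairs of neighbours in this order, Jchain and Ighm alone had ranges that did not overlap (lowest Jchain 99.2 FPKM, highest Ighm 56.4 FPKM). Igkc exceeded Pigr in all 18 libraries although their ranges overlapped, and Pigr exceeded Igha in 7 of 18. The order depends on the gene length used by the authors, since the FPKM imply 2942 bases for Igha, against 1100 in its GENCODE transcript, and 587 bases for Igkc, against 532. In CPM, which take no account of length, Pigr had a median of 2545, Igha of 1489.7 and Igkc of 806.

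The spread between libraries was wide. The highest library exceeded the lowest by 7.19 times in CPM for Igha, 4.67 times for Igkc, 5.72 times for Jchain and 7.89 times for Pigr. For Ighm the ratio was 10.7, and for Ighd and Ighg3 it was 129 and 121.

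Igha, the IgA heavy chain, did not pass the test in any comparison. Its lowest, median and highest values were 1362, 1686 and 2609 CPM in IBC colons, 751, 1260.0 and 5402 CPM in TNBS colons, and 851, 1640.0 and 4620.4 CPM in vector colons. TNBS 5 was the lowest and TNBS 4 the highest of all 18 libraries, so the TNBS group spanned the vector group on both sides. The log2 fold change was -0.21 ± 0.46 (SE) for TNBS against vector, with an adjusted p of 0.822 (edgeR quasi-likelihood test, n = 6 libraries in each group). For IBC against TNBS it was -0.12 ± 0.46 with an adjusted p of 0.986, although all 6 IBC libraries lay above the TNBS median. Without TNBS 4 that value was 0.48. IBC values lay closer together (1842 ± 504 CPM, SD, n = 6) than those of TNBS (2007 ± 1731 CPM) and vector (2323 ± 1525 CPM).

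Jchain, which links IgA and IgM molecules to each other, was also spread across the groups. It was 391, 470.2 and 843 CPM (lowest, median, highest) in IBC colons, 327, 509 and 1558 CPM in TNBS colons, and 272, 589.8 and 1555 CPM in vector colons. Vector 2 and 5 and TNBS 4 stood above all other libraries, at 1419 CPM or more. Against vector the log2 fold change was -0.61 ± 0.42 in IBC colons (5 of 6 libraries below the vector median, adjusted p = 0.762) and -0.30 ± 0.42 in TNBS colons (4 of 6 below, adjusted p = 0.722, edgeR).

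Pigr, the receptor that carries polymeric IgA across the epithelium, showed the smallest unadjusted p of the members between TNBS and vector and did not pass the test over all genes. It was 1071, 2501 and 2867 CPM in IBC colons, 553, 1909.7 and 4336 CPM in TNBS colons, and 2181, 3311 and 4364 CPM in vector colons. All 6 IBC libraries and 5 of 6 TNBS libraries lay below the vector median, and the groups overlapped in each comparison. The log2 fold change was -0.65 ± 0.35 for TNBS against vector (95% interval -1.38 to 0.08, unadjusted p = 0.0782, adjusted p = 0.326) and -0.49 ± 0.35 for IBC against vector (-1.22 to 0.24, adjusted p = 0.769), by edgeR. These comparisons share their vector libraries. Between IBC and TNBS the log2 fold change of Pigr was 0.16 ± 0.35 with an adjusted p of 0.972.

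Within the libraries high in Hoxb13, Pigr averaged 2668 ± 272 CPM in IBC, 2277 ± 1576 CPM in TNBS and 3515 ± 642 CPM in vector (SD, n = 4 each). Within the low set its values were 2326 and 1071 CPM in IBC 2 and 5, 2011 and 1434 CPM in TNBS 2 and 3, and 2181 and 3473 CPM in vector 3 and 4. TNBS 5, which had the lowest Pigr of all at 553 CPM, also had the lowest Igha. Its Hoxb13 was the highest of all libraries (596 CPM), and its sum of colon markers the lowest (2706 CPM). In whole colon tissue, fewer cells of a type and less RNA per cell cannot be told apart.

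Igkc, the constant part of the kappa light chain, was 669, 809.6 and 1569 CPM in IBC colons, 594, 756 and 2434 CPM in TNBS colons, and 521, 941 and 1373 CPM in vector colons. Its log2 fold change was 0.14 ± 0.33 for TNBS against vector (adjusted p = 0.835) and -0.23 ± 0.33 for IBC against TNBS (adjusted p = 0.949), by edgeR. The 95% interval for TNBS against vector ran from -0.55 to 0.84, the narrowest among the members.

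**Figure D1:**
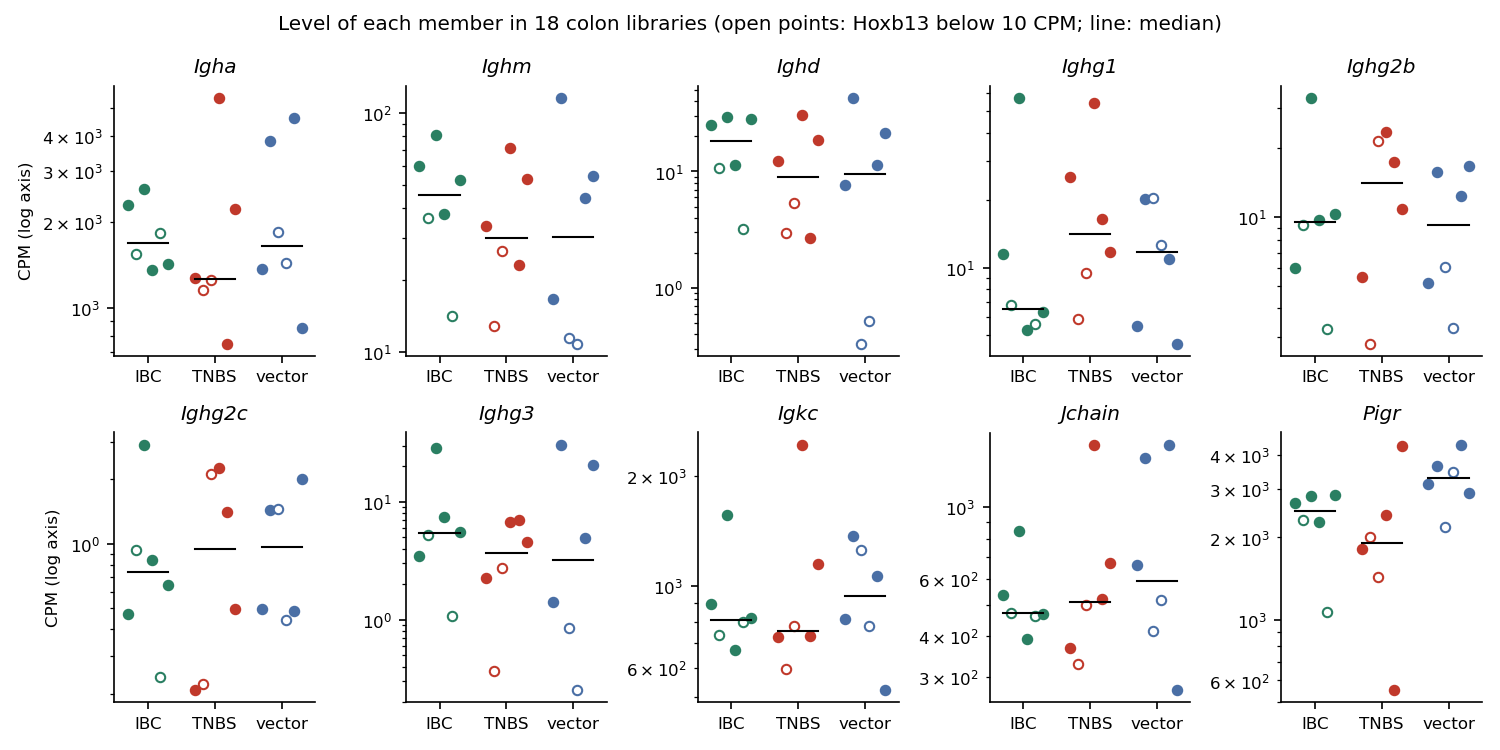
Level of each of the 10 members in CPM (log axis) in the 18 colon libraries by group (IBC, TNBS, vector), with lines at group medians and open points for libraries with Hoxb13 below 10 CPM. The groups overlap for every member, and TNBS 4 holds the highest point for Igha (5402 CPM), Igkc (2434 CPM) and Jchain (1558 CPM).

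Ighm, the heavy chain of IgM, was 14.1, 45.3 and 81.5 CPM in IBC colons, 12.8, 30.0 and 71.5 CPM in TNBS colons, and 10.8, 30.4 and 116 CPM in vector colons. Ighd, the heavy chain of IgD, was 3.23, 18.2 and 29.5 CPM in IBC colons, 2.70, 8.90 and 30.5 CPM in TNBS colons, and 0.331, 9.56 and 42.6 CPM in vector colons. Vector 2 was the highest library for both genes, and vector 3 and 4 were the lowest for Ighd. For IBC against TNBS the log2 fold changes were 0.36 ± 0.55 for Ighm (5 of 6 libraries above the TNBS median, adjusted p = 0.952) and 0.58 ± 0.87 for Ighd (5 of 6 above, adjusted p = 0.951). For TNBS against vector they were -0.20 ± 0.55 and -0.21 ± 0.87, with adjusted p of 0.862 and 0.912 (edgeR).

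The IgG genes were low and variable. Ighg1 was 5.29, 6.57 and 57.1 CPM in IBC colons, 5.90, 14.2 and 54.2 CPM in TNBS colons, and 4.58, 11.8 and 20.5 CPM in vector colons. IBC 3 and TNBS 4 stood apart from the rest, with all the other libraries at 25.4 CPM or less. The log2 fold change for TNBS against vector was 0.73 ± 0.64, with 3 of 6 TNBS libraries above the vector median and an adjusted p of 0.544 (edgeR). Ighg2b was 3.24, 9.51 and 33.2 CPM in IBC colons, 2.81, 14.1 and 23.6 CPM in TNBS colons, and 3.28, 9.24 and 16.8 CPM in vector colons. Its log2 fold change for TNBS against vector was 0.46 ± 0.56 with an adjusted p of 0.671. Ighg2c did not exceed 2.90 CPM in any library, from 14 to 204 counts, and its log2 fold change for TNBS against vector was 0.09 ± 0.66 with an adjusted p of 0.955. IBC 3 was the highest library for Ighg1, Ighg2b and Ighg2c.

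Ighg3, the heavy chain of a further IgG subclass, had wide errors and the largest log2 fold changes of the members for TNBS against vector and for IBC against TNBS, though not for IBC against vector. It was 1.07, 5.40 and 28.4 CPM in IBC colons, 0.367, 3.66 and 7.06 CPM in TNBS colons, and 0.253, 3.20 and 30.5 CPM in vector colons. Vector 2 (30.5 CPM), IBC 3 (28.4 CPM) and vector 6 (20.5 CPM) were high, and no other library exceeded 7.40 CPM. The log2 fold change was -1.30 ± 0.95 for TNBS against vector (adjusted p = 0.466), although 3 of 6 TNBS libraries lay above the vector median, and 1.10 ± 0.95 for IBC against TNBS (adjusted p = 0.925, edgeR). Without vector 2 the first value was -0.49, and without IBC 3 the second was 0.20. For IBC against vector it was -0.19 ± 0.94 (adjusted p = 0.977). These comparisons share libraries.

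Over the 10 members, edgeR called 0 in each of the 3 comparisons, and 0 had an unadjusted p under 0.05. DESeq2 and limma also called 0. Of all 20855 genes, 0.0192% were called between TNBS and vector (4 genes) and 0% in each comparison with IBC. At an unadjusted p under 0.05 the shares over all genes were 8.53% for IBC against vector, 17.8% for TNBS against vector and 3.93% for IBC against TNBS. The groups overlapped for all 10 members in each comparison, while over all genes they did not overlap for 1.08% between IBC and vector, 1.17% between TNBS and vector and 0.149% between IBC and TNBS. The 95% intervals on the log2 scale show what the spread allowed, since that of Igha for TNBS against vector ran from -1.17 to 0.75 and that of Ighg3 from -3.29 to 0.70.

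**Figure D2:**
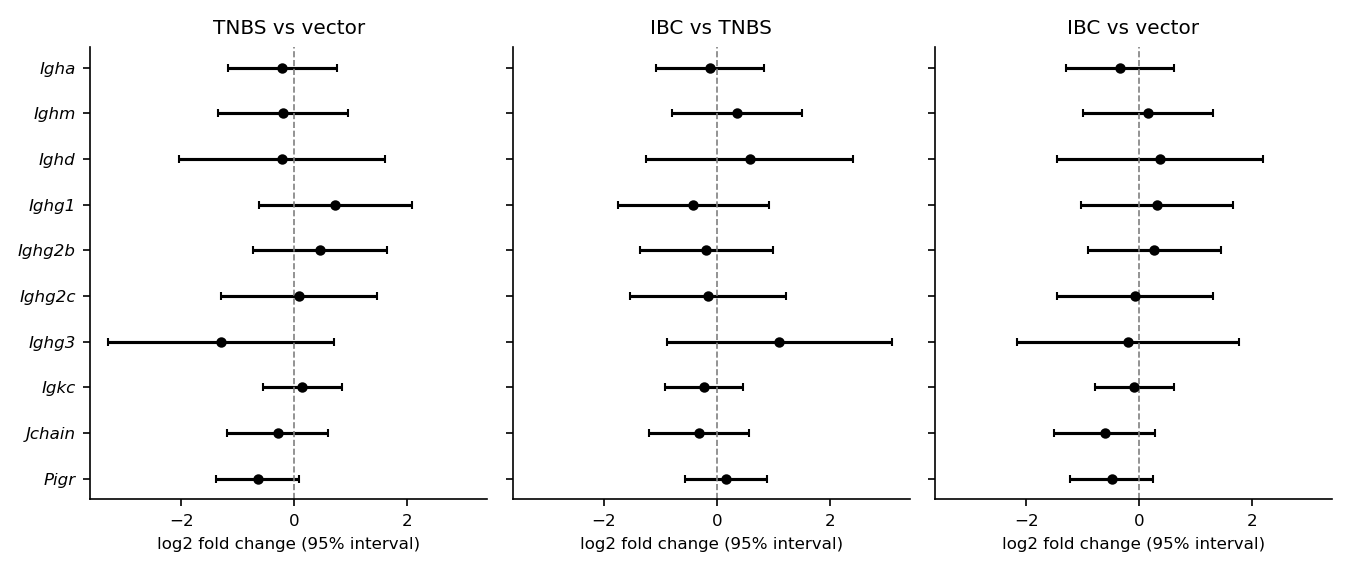
Log2 fold change of each member (horizontal axis, points) with its 95% interval (bars) from the edgeR fit of all 18 libraries, in a panel for each comparison (TNBS against vector on the left). Every interval includes 0, and the intervals of Ighd and Ighg3 are the widest.

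Igha made up most of the heavy chain constant counts in each library. Its share of the summed counts of the 7 heavy chain genes was 95.0% ± 2.30 in IBC, 95.1% ± 2.16 in TNBS and 95.6% ± 4.15 in vector colons (SD, n = 6 each). Per length the shares were 93.6% ± 2.80 in IBC, 94.1% ± 2.46 in TNBS and 94.5% ± 5.20 in vector colons. Vector 6 had the lowest Igha share, 87.6% of counts, with Ighm at 5.64% and the 4 gamma genes at 4.52%. IBC 5 had the highest, 98.5%. The 4 gamma genes together took 0.547% to 5.18% of the counts over the 18 libraries, and the highest values were in TNBS 5 (5.18%), vector 6 (4.52%) and IBC 3 (4.28%), a library of each group.

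Jchain per Igha, as a ratio of FPKM, was 0.306 ± 0.041 in IBC, 0.399 ± 0.171 in TNBS and 0.371 ± 0.090 in vector colons (SD, n = 6 each). TNBS 5 stood out at 0.735, and every other library lay between 0.239 and 0.516. Igkc per Igha was 2.48 ± 0.401 in IBC, 3.05 ± 0.943 in TNBS and 2.53 ± 0.864 in vector colons, and again TNBS 5 was highest at 4.88. As a ratio of counts, Igkc per Igha averaged 0.495 in IBC, 0.609 in TNBS and 0.504 in vector colons. The size of the FPKM ratios rests on the gene lengths used by the authors, which imply 2942 bases for Igha. In TNBS 5 Igha was the lowest of all while Igkc (731 CPM) and Jchain (520.5 CPM) were close to their overall medians of 806 and 507 CPM.

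Across the 18 libraries Jchain followed Igha with r = 0.875 and rho = 0.736 (permutation p = 4e-05 and 0.00076, adjusted over 4 relations 6.7e-05 and 0.001). Without TNBS 4 and vector 5 r was 0.757, and it was 0.287 in the 6 libraries low and 0.896 in the 12 high in Hoxb13. Igkc followed Igha with r = 0.845 and rho = 0.876 (permutation p = 5e-05 and 3e-05, adjusted 6.7e-05 and 6e-05), with r of 0.791 without TNBS 4 and IBC 3, 0.739 in the low and 0.856 in the high set. Ighd and Ighm, the pair made from a shared transcript, had the closest relation of the 4, with r = 0.911 and rho = 0.953 (permutation p = 1e-05 for both, the smallest that 100000 permutations can give, adjusted 4e-05). It was 0.930 without vector 3 and 4, 0.840 in the low and 0.876 in the high set. Pigr and Igha, the receptor and its cargo, were related more loosely, with r = 0.514 and rho = 0.505 (permutation p = 0.030 and 0.035, adjusted 0.030 and 0.035). That r was 0.441 without TNBS 5 and IBC 5, 0.569 in the 12 libraries of the high set and -0.171 in the 6 of the low set. By group it was 0.107 in IBC, 0.662 in TNBS and 0.568 in vector colons (n = 6 each). The relation was thus not seen within the low set or the IBC group, each of 6 libraries. Whether these r differ from the others was not tested. All members of a library share its depth and its dissection.

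By a fixed rule, the 5 genes outside the immunoglobulin families whose log2 CPM ran most like each of 3 members over the 18 libraries were listed, as a description. For Ighm they were Fcrl1, Fcrla, Cd79a, Fcmr and Cd79b (Spearman rho 0.957 to 0.977), of which Cd79a and Cd79b form the signalling part of the B cell receptor and Fcmr is the receptor for the Fc part of IgM. For Igha they included Nuggc, Spag6, Slamf7 and 5830418P13Rik (rho 0.773 to 0.806), of which Slamf7 is a surface receptor found on plasma cells. For Pigr they were Scin, Slc13a2os, Gm15848, Gm48249 and Clca1 (rho 0.920 to 0.938). Clca1 is a secreted product of goblet cells, and its own log2 fold change for TNBS against vector was -2.32 ± 0.77 with an adjusted p of 0.182 (edgeR). The nearest genes of Ighm thus matched it more closely than those of Igha did.

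Ighm, Ighd and Ighg3 differed between the libraries low and high in Hoxb13. This comparison was added after the data were seen, with the treatment group as a term in the same edgeR fit. It is a comparison of 6 with 12 libraries defined from a measured gene, not of groups of the study. Library depth went partly with the sets. In the low set, vector 3, vector 4, TNBS 3 and IBC 5 held 71792213 to 78874868 counts, more than any library of the high set (55669263 to 66253948). TNBS 2 (64639348) and IBC 2 (64003983) lay within the range of the high set. The part of depth, or of a separate preparation or run, in the differences between the sets was not tested. Other Hox genes differed too. Hoxb6 (log2 fold change 5.28 ± 0.28) and Hoxb8 (5.88 ± 0.36) were called higher in the low set. Hoxa13 (-3.30 ± 0.70) and Hoxd13 (-8.98 ± 1.56) were called lower. Ighd was 0.331, 3.10 and 10.7 CPM (lowest, median, highest) in the low set and 2.70, 20.1 and 42.6 CPM in the high set, a log2 fold change of -2.65 ± 0.66 with an adjusted p of 0.0102. Ighm was 10.8, 13.4 and 36.3 CPM in the low set and 16.6, 52.8 and 116 CPM in the high set, with a log2 fold change of -1.56 ± 0.38 and an adjusted p of 0.00856. Ighg3 was 0.253, 0.959 and 5.25 CPM in the low set and 1.42, 6.17 and 30.5 CPM in the high set, with a log2 fold change of -2.49 ± 0.77 and an adjusted p of 0.0351. The sets overlapped for each of the 3 genes, as they did for all but 2.88% of all genes.

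Read against all genes, 3 of 10 members were called lower in the low set, where 7.38% of all genes were called lower, 8.2% higher and 15.6% in either direction. None of the other 7 members passed, and their log2 fold changes lay between -0.93 for Ighg2b and -0.36 for Ighg2c and Igkc. Igha was 1159, 1489.7 and 1849 CPM in the low set and 751, 1818 and 5402 CPM in the high set (log2 fold change -0.62 ± 0.39, adjusted p = 0.307). Jchain was 327 to 516 CPM in the low set and 272 to 1558 CPM in the high set (-0.74 ± 0.34, adjusted p = 0.161), and Pigr 1071 to 3473 CPM in the low set and 553 to 4364 CPM in the high set (-0.45 ± 0.29, adjusted p = 0.318). For Igha and Jchain the low set was narrow and lay within the range of the high set.

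Whether the differences of Ighm and Ighd from those of Igha and Pigr go beyond their errors was not tested. The call of Ighg3 was lost without vector 3, vector 4, TNBS 2, IBC 3 or IBC 5 (adjusted p = 0.0646 to 0.0834), while those of Ighm and Ighd held without any single library. Pigr was called lower without TNBS 5 (log2 fold change -0.57, adjusted p = 0.0492), and Ighg2b without TNBS 3 (-1.53, adjusted p = 0.034).

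Within each treatment group the direction was the same for the group means of these genes. Ighd was 10.7 and 3.23 CPM in IBC 2 and 5, against 11.4 to 29.5 CPM in the other IBC libraries. It was 2.98 and 5.40 CPM in TNBS 2 and 3, against 2.70 to 30.5 CPM in the other TNBS libraries, and 0.331 and 0.518 CPM in vector 3 and 4, against 7.70 to 42.6 CPM in the other vector libraries. The sets did not overlap for Ighd within the IBC and vector groups and overlapped within the TNBS group. A difference in the group effect between the sets was tested as an interaction (edgeR). Of all 20855 genes, 0 passed for TNBS against vector, 1 for IBC against vector and 2 for IBC against TNBS. No member passed. Ighd came closest, with unadjusted p of 0.00578 for TNBS against vector (adjusted p = 1.00) and 0.00425 for IBC against vector (adjusted p = 0.212), which share the 2 low vector libraries.

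Genes of B cells were lower in the low set as well. Of 16 genes of a B cell list, 14 were called lower in the low set, among them Cr2, the complement receptor of B cells (-2.71 ± 0.74, adjusted p = 0.0179), and Cd22, an inhibitory receptor (-2.42 ± 0.52, adjusted p = 0.00371). Over all genes 7.38% were called lower. The median log2 fold change of the list was -2.10, against -0.01 over all genes. Cd22 was 0.441 to 6.04 CPM in the low set and 1.85 to 24.3 CPM in the high set. Summed over the list, the level was 20.6, 40.3 and 89.6 CPM in the low set and 37.3, 130.0 and 284 CPM in the high set.

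Of 16 plasma cell genes, 3 were called lower in the low set and 0 higher, and their median log2 fold change was -0.44. For these and the lists that follow, the shares over all genes were 7.38% lower, 8.2% higher and 15.6% in either direction. The 3 were Irf4 (-1.23 ± 0.36, adjusted p = 0.0247), a transcription factor of activated B cells and plasma cells, Pou2af1 (-1.23 ± 0.32, adjusted p = 0.0128), a B cell coactivator, and Tnfrsf13b (-1.22 ± 0.31, adjusted p = 0.0107), a receptor for the survival factors BAFF and APRIL. Sdc1 (0.14 ± 0.12, adjusted p = 0.473), which the epithelium also expresses, and Xbp1 (-0.02 ± 0.12, adjusted p = 0.939), a factor of secretory cells, did not pass. Of the 15 tested genes of IgA induction and homing, 1 was called lower and 1 higher by edgeR. Ccl28, the chemokine that draws IgA plasma cells to the colon, was lower (-0.82 ± 0.20, adjusted p = 0.00912). Aldh1a1, an enzyme of retinoic acid synthesis, was higher (3.58 ± 0.31, adjusted p = 8.78e-07). Of the 13 tested genes of Pigr induction and Fc transport, Fcamr, a receptor for IgA and IgM, was called lower (-1.38 ± 0.37, adjusted p = 0.0149). In the same list B2m, a subunit of the neonatal Fc receptor and of MHC class I, was called higher (0.65 ± 0.12, adjusted p = 0.000914), as was Irf1, a transcription factor of the interferon response (0.89 ± 0.18, adjusted p = 0.00266), and the median was 0.15. Smooth muscle genes moved with the sets too, with 5 of 10 called higher in the low set and a summed level of 3208 to 9485 CPM in the low set and 2084 to 5326 CPM in the high set. Of 16 epithelial genes, 4 were called higher in the low set (Krt20, Cldn3, Cldn7 and Car1) and 1 lower (Clca1), with a summed level of 31868 to 44317 CPM in the low set and 20227 to 67809 CPM in the high set. Of the 7 colon markers, Car1 and Cdx2 were called higher, and their sum was 13995 to 30271 CPM in the low set and 2706 to 17986 CPM in the high set. The part of the muscle, epithelial and colon genes in the member differences was not tested.

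**Figure D3:**
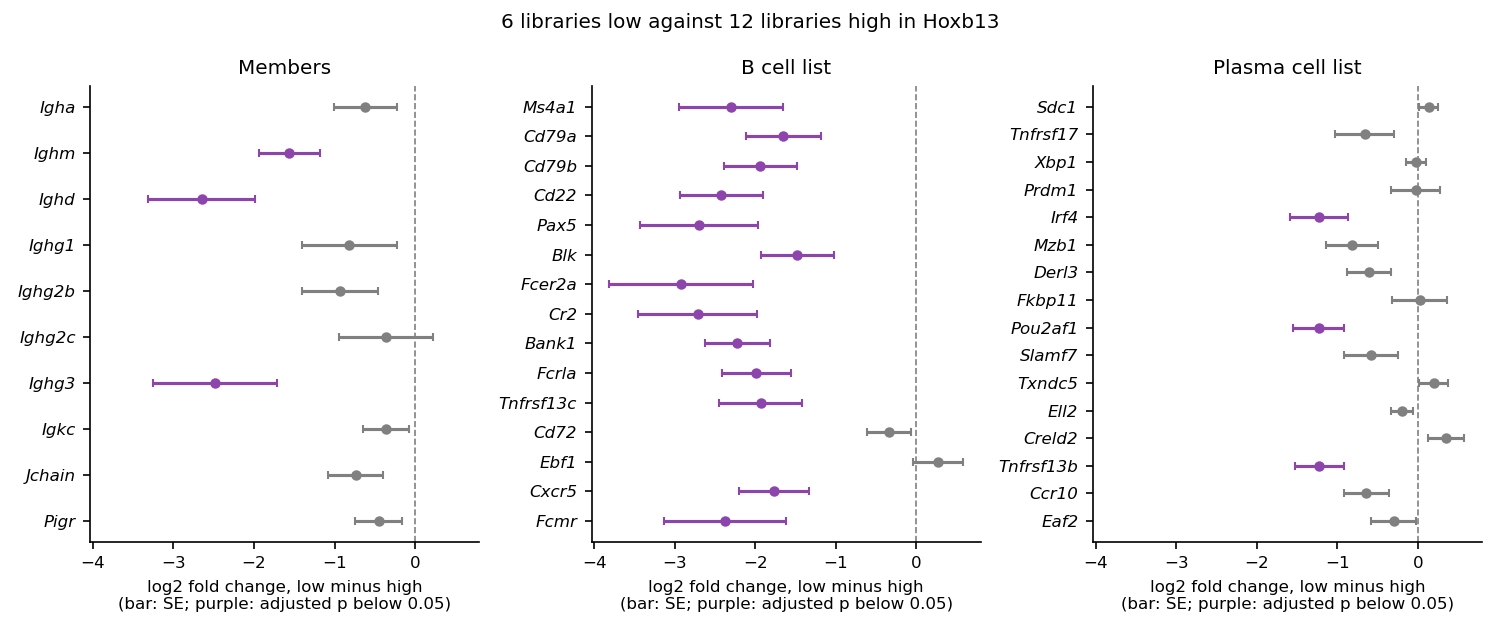
Log2 fold change, libraries low minus libraries high in Hoxb13, with its standard error (bars) for the 10 members, 15 of the 16 B cell genes and 16 plasma cell genes, where purple marks an adjusted p below 0.05 (edgeR, group as a term). Ighm, Ighd and Ighg3, 13 of the B cell genes drawn and 3 plasma cell genes are marked, all to the left of 0.

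Between the treatment groups, the lists of genes around the members held no called gene. The 16 B cell genes all had negative log2 fold changes for TNBS against vector (median -0.39, all genes -0.01), and 0 passed edgeR's test and 0 had an unadjusted p under 0.05. For IBC against TNBS all 16 were positive (median 0.50, all genes 0.00) and 0 passed. Those comparisons share the TNBS libraries, and the genes of a list rise and fall together between libraries. Summed over the list, the median level was 115 CPM in IBC, 65.1 CPM in TNBS and 67.8 CPM in vector colons. Vector 2 was the highest of all libraries at 284 CPM, and the next vector library, vector 6, had 140 CPM. Ms4a1, which encodes CD20, was 1.33, 8.12 and 15.9 CPM in IBC colons, 1.43, 5.68 and 10.7 CPM in TNBS colons, and 0.142, 5.66 and 24.4 CPM in vector colons.

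Of the 16 plasma cell genes, 9 were higher and 7 lower in TNBS than in vector colons, and 0 passed. At an unadjusted p under 0.05 by edgeR, 4 were higher and 1 lower, against 17.8% of all genes in either direction. Xbp1 was 322, 367 and 528 CPM in TNBS colons and 239.8, 306 and 331 CPM in vector colons (log2 fold change 0.41 ± 0.14, adjusted p = 0.192). Creld2, a protein of the endoplasmic reticulum, was 92.7, 104 and 145 CPM in TNBS colons and 39.8, 76.6 and 97.5 CPM in vector colons (0.62 ± 0.27, adjusted p = 0.254). Xbp1 is also used by secretory cells of the epithelium. Fkbp11, a folding enzyme of secretory cells, had a log2 fold change of 0.89 ± 0.39 (adjusted p = 0.251), and Sdc1 of 0.32 ± 0.14 (adjusted p = 0.253). The gene on the lower side was Tnfrsf17, the plasma cell receptor BCMA, at 0.255, 1.02 and 1.72 CPM in TNBS colons and 0.908, 1.67 and 2.90 CPM in vector colons (-0.97 ± 0.43, adjusted p = 0.257).

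Of the 14 tested genes of class switching and germinal centres, 7 were higher and 7 lower in TNBS colons, and 0 passed. Cxcl13, the chemokine of B cell follicles, had a log2 fold change of 1.61 ± 0.54 for TNBS against vector (adjusted p = 0.184) and -1.12 ± 0.53 for IBC against TNBS (adjusted p = 0.925). Of the 15 tested genes of IgA induction and homing, 8 were higher and 7 lower, and 0 passed. Madcam1, the vessel address molecule for gut lymphocytes, was 5.21, 6.35 and 9.69 CPM in TNBS colons and 1.22, 2.73 and 9.51 CPM in vector colons (0.80 ± 0.37, adjusted p = 0.274). Ccl28 was 36.3, 68.5 and 116 CPM in TNBS colons and 35.4, 114 and 134 CPM in vector colons (-0.54 ± 0.31, adjusted p = 0.348).

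Of 13 tested inducers of Pigr and genes of Fc transport, 8 were higher and 5 lower in TNBS colons and 0 passed. At an unadjusted p under 0.05 by edgeR, 3 were higher, against 17.8% of all genes in either direction. Tnf, a cytokine that induces Pigr in cultured epithelium, was 1.09, 2.82 and 7.50 CPM in TNBS colons and 0.297, 0.706 and 1.70 CPM in vector colons (2.09 ± 0.52, adjusted p = 0.107). Its receptor Tnfrsf1a had a log2 fold change of 0.60 ± 0.16 (adjusted p = 0.124) and Il1b, a cytokine of acute inflammation, of 2.38 ± 0.67 (adjusted p = 0.138). For the same comparison Pigr was at -0.65 on this scale, and none of these 4 differences passed edgeR's test over all genes. For IBC against TNBS the log2 fold change was -0.62 ± 0.50 for Tnf and 0.25 ± 0.63 for Il1b, with adjusted p of 0.925 and 0.974. For IBC against vector, 9 were higher and 4 lower, 0 passed, and 6 were higher at an unadjusted p under 0.05 (8.53% of all genes in either direction). Among these Il1b was at 2.63 ± 0.67 (adjusted p = 0.246), Tnf at 1.47 ± 0.51 (adjusted p = 0.397) and Fcgrt, the large subunit of the neonatal Fc receptor, at 0.78 ± 0.28 (adjusted p = 0.415).

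Markers of other tissues were also compared between the groups. All 10 smooth muscle genes had negative log2 fold changes for TNBS against vector (median -0.91), of which Synm, a filament protein of muscle, was called (-1.72 ± 0.28, adjusted p = 0.0471), though no gene was called with limma, with no filter on low counts or with the 2 groups fitted alone. Their summed level was 2084 to 4865 CPM in TNBS colons and 3185 to 9485 CPM in vector colons. All 5 tested red blood cell genes were lower too (median -1.37, 0 called), with a summed level of 57.1 to 170.5 CPM in TNBS colons and 129 to 277 CPM in vector colons. Of 16 epithelial genes, 9 were higher and 7 lower, 0 were called, and the sums overlapped, at 23582 to 44645 CPM in TNBS colons and 27104 to 67809 CPM in vector colons. The part of these genes in the member values was not tested.

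The lambda light chain genes, which are no members but share the light chain role with Igkc, varied widely. Iglc1 was 45.4, 52.1 and 197 CPM in IBC colons, 25.0, 98.1 and 562 CPM in TNBS colons, and 30.6, 163 and 1297 CPM in vector colons. Its log2 fold change was -2.24 ± 0.89 for IBC against vector (adjusted p = 0.485) and -1.52 ± 0.87 for TNBS against vector (adjusted p = 0.351, edgeR). Vector 5 (1297 CPM) and vector 2 (949.8 CPM) were highest, and lambda took 55.4% and 41.9% of their light chain constant counts, against 3.97% to 22.4% in the other 16 libraries. In vector 5 Igkc was 1069.8 CPM, within the range of the other vector libraries, while Igha, at 4620.4 CPM, was the highest of the vector group. Igkc per Igha in that library, 1.16 as a ratio of FPKM, was the lowest of all.

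The variable segments, which are joined to the constant genes in the mature transcript, were concentrated in few segments in some libraries. Counts were found for 64 to 77 of 98 Ighv segments and 81 to 92 of 98 Igkv segments per library. Over the 18 libraries the most abundant Ighv segment held between 8.68% and 57.4% of the Ighv counts, with a median of 14.2%. Ighv5-4 held 57.4% in vector 5 and 36.1% in vector 2, the libraries with high Iglc1, and 30.8% in IBC 2. Iglv1 reached 2116 CPM in vector 5 and 1547 CPM in vector 2, against 858 CPM or less elsewhere. In IBC 1 the leading segments were Ighv2-2, with 39.0% of the Ighv counts, and Igkv8-24, with 39.4% of the Igkv counts, and Igkv8-24 held at most 1.80% in any other library. Ighv8-2 held 33.7% in TNBS 4, the library with the highest Igha. The segments named here were chosen after their values were seen.

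No difference between groups in the summed level of the segments passed an exact two-sided permutation test over all assignments of 6 against 6 libraries. The mean log2 CPM of the Ighv sum was 7.57 in TNBS and 8.12 in vector colons (p = 0.485), and that of the Iglv sum 7.05 in IBC and 8.38 in vector colons (p = 0.206), each with an adjusted p of 0.930 over 9 tests (exact permutation). The Igkv sum was 9.16 in TNBS and 9.29 in vector colons (p = 0.779, exact permutation, adjusted 0.930). The groups overlapped for each of the 3 kinds.

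**Figure D4:**
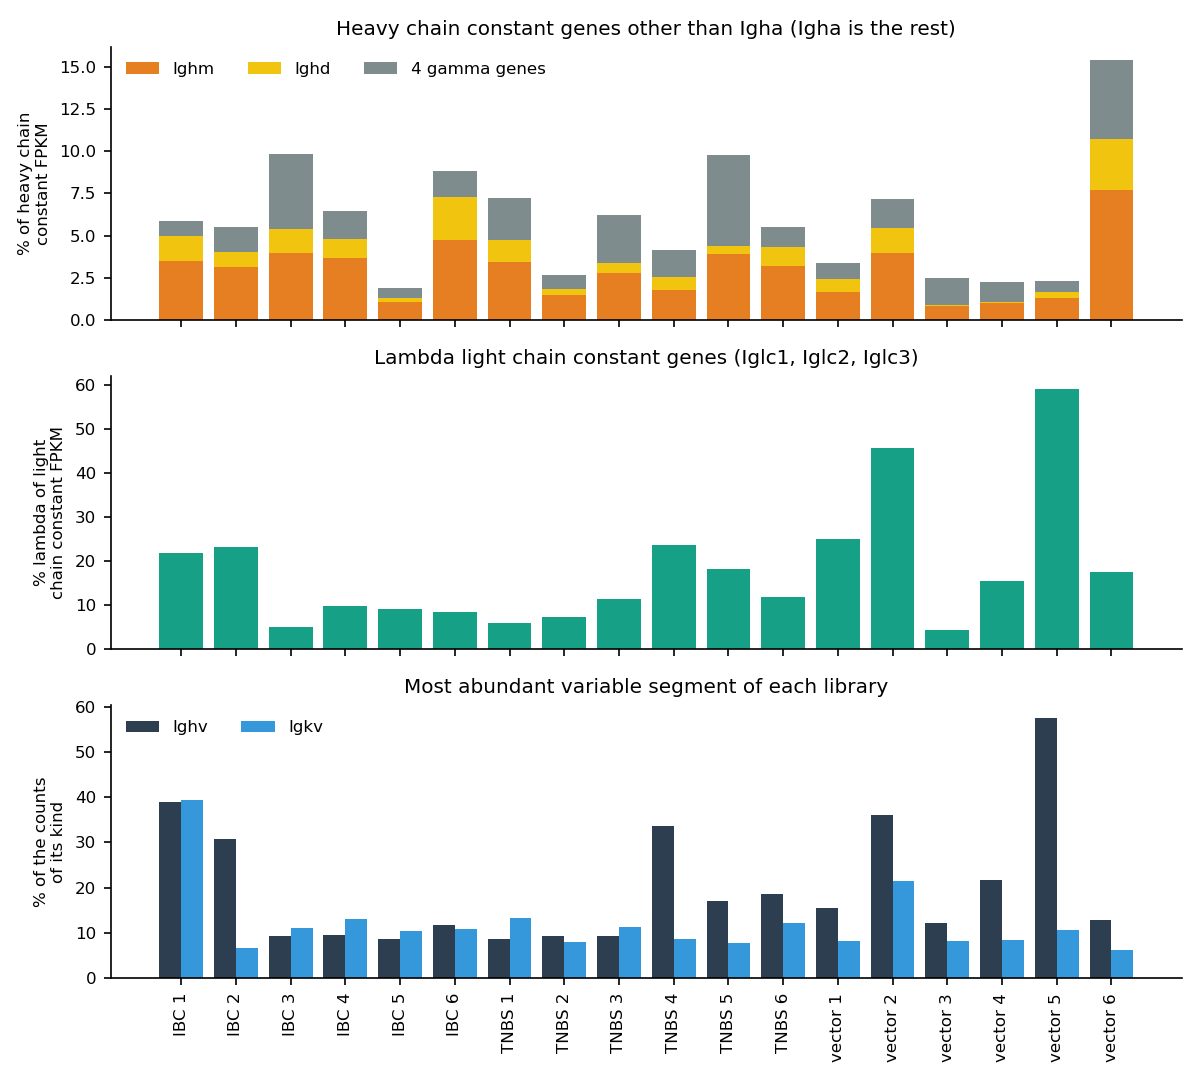
Make-up of the immunoglobulin genes in each of the 18 libraries, ordered IBC, TNBS, vector: percent of heavy chain constant FPKM from Ighm, Ighd and the 4 gamma genes (top), percent of light chain constant FPKM from lambda genes (middle), and percent of Ighv and Igkv counts held by the most abundant segment (bottom). Vector 6 has the highest bar in the top panel, and vector 5 and vector 2 have the highest bars in the middle panel.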

How the data were processed

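PolyA RNA of 18 mouse colon libraries was measured, 6 per group, and groups and replicate numbers come from the labels. The authors deposited a table with a whole-number count and an FPKM value per gene and library, per the file headers. Cutadapt 1.9 is named per the submitters' processing notes. Which aligner, counter, annotation and build were used is not given in the sources used here. Counts of 4 occurred 19961 times in the table, against 9977 of 3 and 6358 of 5, so a count need not be a single fragment, and counts divided by 4 were tried as an alternative. Of 32979 genes shared with GENCODE M21 (GRCm38), 639 had the same start and end, so the table's positions are given without a build.

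The main test was edgeR 4.0.16 (R 4.3.3), a quasi-likelihood fit of all 18 libraries with TMM scaling, edgeR's default filter on low counts (20855 genes left) and Benjamini-Hochberg adjustment over all of them at 0.05. It was tested on simulated data first. CPM are TMM-scaled. The 4 tested correlations used log2 of CPM plus 0.01. The lists of genes most like Igha, Ighm and Pigr used log2 CPM with a prior count of 2. Segment sums and correlations were tested by permutation (scipy 1.17.1). With 55669263 to 78874868 counts per library, counting error was small beside the spread between libraries for most members. Ighg2c, Ighd and Ighg3 fell to 14, 21 and 20 counts in single libraries, where it is larger. Between libraries Ighd and Ighg3 also spread widely, by 129 and 121 times in CPM. Alternatives were DESeq2 1.42.0, limma 3.58.1 on log2 FPKM, other scalings and filters, the compared groups alone, a replicate block, Hoxb13 set (above or below 10 CPM), and each library left out. Replicate numbers showed no pairing of the libraries that held across the comparisons.

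The members and lists were chosen with earlier results of these data known. The genes named are the 10 members, the 4 genes of each list with the smallest p between TNBS and vector, the 5 genes most like Igha, Ighm and Pigr, and others named as examples after their values were seen. In the comparison of Hoxb13 sets, members and genes of the lists are named. Some single-gene results are not reported here. No column of per-sample values was left out. No libraries looked like repeats of each other.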

Additional observations from a re-analysis of the deposited data

Results flagged for a closer look

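A library above or below the other 5 of its group was flagged when its gap to the nearest exceeded Dixon's 95% critical value. Chance gives this in about 1 in 20 groups of normally distributed values. The rule was applied to CPM without a log transform, so that rate need not hold here. Of 42 groups of values tested, 13 held such a library, and 12 of the 13 belong to TNBS 4 or IBC 3. The values of a library are not independent of each other.

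IBC 3 stood above the rest of the IBC group in all 4 gamma genes. Ighg1 was 57.1 CPM there (next highest 11.5 CPM), Ighg2b 33.2 CPM (10.3 CPM), Ighg3 28.4 CPM (7.40 CPM) and Ighg2c 2.90 CPM (0.936 CPM). In the same library Igkc was 1569 CPM (next 893 CPM), Jchain 843 CPM (534 CPM) and the Igkv sum 1165 CPM (616 CPM). Its Igha, at 2609 CPM, was the highest of the group but was not flagged.

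TNBS 4 stood above the rest of the TNBS group in Igha at 5402 CPM (next highest 2211 CPM), Igkc at 2434 CPM (1149 CPM) and Jchain at 1558 CPM (675 CPM). Iglc1 was 562 CPM (next 124 CPM) and the Iglv sum 956 CPM (202 CPM) in that library. Pigr in IBC 5 was below the other IBC libraries, at 1071 CPM against 2281 CPM for the next lowest. IBC 5 is a library low in Hoxb13.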

How the results depend on the processing

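No member was called between treatment groups under any of the 13 alternatives or 12 leave-one-out fits of each comparison. The number of all genes called moved with the setting. For TNBS against vector edgeR called 4, DESeq2 578, the fit with the Hoxb13 set as a term 142 and the replicate block 1. It was 0 with no or a stricter filter, limma, counts divided by 4, the 2 groups alone or either Hoxb13 set alone, and 0 to 324 with single libraries left out (324 without TNBS 6). For IBC against vector DESeq2 called 186, the libraries high in Hoxb13 alone 30, the 2 groups alone 8 and the Hoxb13 term 4, with 0 to 5 leaving out a library (5 without IBC 2). For IBC against TNBS DESeq2 called 2, with 0 to 1 leaving out a library (1 without IBC 4). The causes were not tested.

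Directions of the uncalled log2 fold changes turned in these fits. With limma on log2 FPKM (pseudocounts 1 and 0.1) TNBS against vector gave 0.080 and 0.11 for Ighm, 0.14 and 0.56 for Ighd, and -0.020 and -0.17 for Ighg2c. IBC against TNBS gave 0.27 and 0.27 for Igha, 0.0047 and 0.071 for Ighg2c, and 0.0048 and 0.0049 for Igkc. IBC against vector gave -0.0021 and -0.043 for Ighg1, 0.21 and 0.65 for Ighg3, and 0.0125 and 0.0125 for Igkc. With the replicate block the values were -0.099 for Ighg2c (TNBS against vector), 0.0076 for Igha (IBC against TNBS), and -0.056 for Ighg1 and 0.095 for Ighg3 (IBC against vector). With the Hoxb13 set as a term they were 0.37 for Ighd (TNBS against vector) and 0.32 for Ighg3 (IBC against vector). In the libraries high in Hoxb13 alone, Ighg2c was -0.019 for TNBS against vector, Ighg2b 0.054 and Ighg2c 0.16 for IBC against TNBS, and Ighg2c 0.14 and Igkc 0.088 for IBC against vector. In the 6 low libraries alone, TNBS against vector gave 0.81 for Ighm, 3.29 for Ighd, -1.11 for Ighg1, 1.52 for Ighg3 and -0.57 for Igkc. There IBC against TNBS gave 0.48 for Igha, 0.15 for Igkc, 0.17 for Jchain and -0.027 for Pigr, and IBC against vector 0.036 for Igha, -1.42 for Ighg1 and 2.52 for Ighg3.

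Leaving out single libraries gave these ranges. For TNBS against vector they were -0.80 to 0.11 for Igha (positive without vector 5), -0.50 to 0.42 for Ighm (vector 2), -0.73 to 0.55 for Ighd (vector 2 or TNBS 5), -0.23 to 0.37 for Ighg2c, -0.27 to 0.28 for Igkc (negative without TNBS 4) and -0.75 to 0.0078 for Jchain (vector 5). For IBC against TNBS, Igha was -0.28 to 0.48, Ighg1 -1.52 to 0.16, Ighg2b -0.81 to 0.042, Ighg2c -0.83 to 0.17, Igkc -0.44 to 0.20 and Jchain -0.49 to 0.15, each highest without TNBS 4, and Pigr -0.024 (without TNBS 5) to 0.52. For IBC against vector, Ighm was -0.054 to 0.79, Ighg1 -0.79 to 0.52 and Ighg2b -0.35 to 0.48 (each lowest without IBC 3), Ighg2c -0.74 to 0.22, Ighg3 -1.09 to 0.62 and Igkc -0.29 to 0.056. Segment sums ranged from -0.42 to 0.078 for Igkv (TNBS against vector), and for IBC against TNBS from -0.069 to 0.57 for Ighv, -0.25 to 0.25 for Igkv and -0.50 to 0.38 for Iglv.

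Between the Hoxb13 sets edgeR called 3249 genes, 1500 with the replicate block and 2428 to 5049 with single libraries left out (5049 without TNBS 5). Ighm and Ighd were called under every alternative run (adjusted p 8.5e-05 to 0.0264 and 9.64e-05 to 0.0282), Ighg3 lost its call with no filter on low counts (adjusted p = 0.053), Ighg2b gained one with the block (adjusted p = 0.0147), and 10 to 14 B cell genes were called leaving out a library. Ighm made up 2.41% of heavy chain counts in IBC and 2.00% in TNBS colons, and 3.36% of FPKM in IBC and 2.79% in TNBS colons. Replicate numbers showed no pairing that held across the comparisons: of 18 same-numbered pairs, 7 had deviations correlated over 0.1, and the median was -0.0208. For IBC against TNBS r was 0.322, 0.494, -0.340, 0.264, 0.0143 and 0.175 for replicates 1 to 6. The deviations also carry the Hoxb13 sets, so this check cannot settle whether libraries were paired. The spread between libraries and the 6 libraries per group limit what could be detected. So do the low counts of Ighg2c, and of Ighd and Ighg3 in some libraries.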
